A study of Mus musculus with 45 samples.

Results

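The 6 genes described here, S100a8, S100a9, Retnlg, Csf3r, Trem1 and Mmp9, were taken by symbol from the 19494 named genes of an ileum microarray series, with 1 probe each. S100a8 and S100a9 encode the subunits of calprotectin, and the remaining 4 are known from neutrophils. Expression was measured on 45 arrays, 1 mouse each, in 9 groups of 5 mice about 11 weeks old, kept free of specific pathogens on chow. The sex of the mice was not given. The floxed controls were Fadd fl/fl and Casp8 fl/fl, in which the gene is flanked by recombination sites and not deleted. FADD IEC-KO and CASP8 IEC-KO mice lacked the gene in intestinal epithelial cells. In 4 further groups a second gene was missing as well. These were FADD IEC-KO Mlkl -/- (MLKL double mutants), FADD IEC-KO Zbp1 -/- (ZBP1 double mutants), FADD IEC-KO RIPK3 IEC-KO (RIPK3 double mutants) and CASP8 IEC-KO Mlkl -/-. The last group, FADD IEC-KO CASP8 IEC-KO Mlkl -/-, is called the triple mutants below. The genotype field of that group left Fadd out, so the sample titles were used. The Mlkl -/- and Zbp1 -/- alleles are written without a tissue, and the RIPK3 deletion is epithelial. The Cre line behind the epithelial deletions was not named in the labels.

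Neutrophils are short-lived phagocytes that leave the blood for inflamed mucosa, and faecal calprotectin is in clinical use as a marker of intestinal inflammation. Calprotectin binds zinc, manganese and calcium, starves microbes of metal ions, and is the most abundant cytosolic protein of neutrophils. It is also made by monocytes and, under inflammation, by some epithelia. FADD and caspase-8 hold back necroptosis, the lytic death carried out by RIPK3 and MLKL, and ZBP1 is a nucleic acid sensor that can engage RIPK3. The comparisons ask whether loss of either gene from the gut epithelium moves neutrophil genes, and whether loss of ZBP1, RIPK3 or MLKL moves them back.

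S100a8 and S100a9 lie side by side on chromosome 3, on opposite strands, and no annotated gene starts between them. Only this pair of the 6 genes correlated within genotypes at an adjusted permutation p under 0.05. The call was lost without the 2 mice farthest from the median of S100a8. The promoters of both genes are printed for this relation. Each is the stretch of 250 bases before the RefSeq start in mouse GRCm38.p6, at chr3:90668821-90669070 on the plus strand for S100a8 and at chr3:90695722-90695971 on the minus strand for S100a9. Capitals mark matches to 6 searched motifs, read on both strands.
S100a8: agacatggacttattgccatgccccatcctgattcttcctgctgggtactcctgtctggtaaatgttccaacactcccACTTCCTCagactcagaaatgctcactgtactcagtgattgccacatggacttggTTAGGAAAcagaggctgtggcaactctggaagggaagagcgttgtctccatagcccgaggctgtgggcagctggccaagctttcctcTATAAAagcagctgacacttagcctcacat
S100a9: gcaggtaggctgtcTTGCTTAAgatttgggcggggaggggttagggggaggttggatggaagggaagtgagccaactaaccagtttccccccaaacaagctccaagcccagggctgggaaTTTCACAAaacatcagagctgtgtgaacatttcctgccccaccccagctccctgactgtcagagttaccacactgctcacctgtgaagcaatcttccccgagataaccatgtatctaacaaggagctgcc
In the S100a8 stretch the capitals are, in order, the reverse strand of the PU.1 core GAGGAAGT, the C/EBP motif TTNNGNAA and a TATA box, TATAAA. The S100a9 stretch held 2 matches to the C/EBP motif, both on the reverse strand, and none to the other 5 motifs. Among 32851 promoter stretches of this length, 36.8% held the C/EBP letters, 12.4% the TATA box letters and 2.44% the PU.1 letters. The AP-1 letters TGANTCA, the STAT letters TTCNNNGAA and the NF-kB motif were in neither stretch and were held by 6.75%, 7.02% and 1.41% of all stretches. The C/EBP letters also stood in the promoters of Retnlg and Trem1, the STAT letters in that of Trem1, and none of the 6 motifs in that of Csf3r. A match of letters is a description and not a binding site.

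All 6 probes were dim. The median of all values in the table was 6.50, and S100a8, S100a9, Retnlg and Trem1 lay under it in 45 of 45 mice, Mmp9 in 44 and Csf3r in 43. No detection call came with the values, so whether the lowest ones stand above background is not known. Values are log2 intensities and are not compared between genes. In whole ileum, fewer cells of a type and less RNA per cell cannot be told apart.

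Fadd itself checks the labels. It was between 7.46 and 7.61 in Fadd fl/fl, and 4 of the FADD IEC-KO mice had 5.96, 6.31, 6.45 and 6.21. FADD IEC-KO replicate 1 had 7.32, which goes against its label, so the differences that rest on this group are also given without it. In the triple mutants Fadd was between 5.34 and 6.52. Casp8 was 10.89 in CASP8 IEC-KO replicate 1 and between 9.63 and 10.57 in the other mice of that group, against 11.24 to 11.49 in Casp8 fl/fl. Mlkl was no lower in CASP8 IEC-KO Mlkl -/- than in Casp8 fl/fl beyond error (log2 difference -0.19 ± 0.19, SE, adjusted p = 0.769), so it does not check that label. Zbp1 was lower in the ZBP1 double mutants than in Fadd fl/fl (-1.11 ± 0.29, SE, limma adjusted p = 0.0091). Against FADD IEC-KO its difference of -0.93 ± 0.29 did not pass (adjusted p = 0.0653). Nothing in the labels says whether the mice of a group share a litter.

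S100a8, the smaller calprotectin subunit, had its highest group mean in FADD IEC-KO, the mice with FADD loss and no second deletion. Its log2 values were 3.12, 2.72, 2.82, 2.90 and 3.20 in Fadd fl/fl and 4.43, 4.23, 5.69, 3.06 and 4.59 in FADD IEC-KO. FADD IEC-KO mice 1, 2, 3 and 5 lay above every control, and mouse 4 lay among them. The group means, 2.95 ± 0.20 and 4.40 ± 0.94 (SD, n = 5), differed by 1.45 ± 0.28 (SE), or 2.73-fold with a 95% interval of 1.86 to 4.02 (adjusted p = 0.00128). S100a8 was the only gene of the 6 to pass an adjusted p of 0.05 in this comparison, in which 3.73% of all genes passed. The exact permutation p over the mice was 0.0238. The difference was 1.44 without FADD IEC-KO replicate 1 (adjusted p = 0.00307) and 1.13 without replicate 3, the highest mouse (adjusted p = 0.011). It did not pass when the spread came from these 10 mice alone (adjusted p = 0.0796). The sample titles carry numbers either under 100 or of 200 and over, of unstated meaning, and within these number series the S100a8 difference was 1.44 (4 against 2 mice) and 1.62 (1 against 3 mice).

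S100a9, the larger subunit, was 4.93, 4.72, 4.66, 4.74 and 4.57 in Fadd fl/fl and 4.68, 5.17, 6.27, 4.91 and 5.73 in FADD IEC-KO. FADD IEC-KO mice 2, 3 and 5 lay above all controls, and mice 1 and 4 lay among them. The means of 4.73 ± 0.13 and 5.35 ± 0.65 (SD, n = 5) differed by 0.63 ± 0.19 (SE), or 1.54-fold, and just missed the threshold (adjusted p = 0.0501). Without FADD IEC-KO replicate 1 the S100a9 difference was 0.80 and passed (adjusted p = 0.0109). Without replicate 3 it was 0.40 and did not (adjusted p = 0.244). Within the number series it was 0.43 and 1.07.

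Loss of epithelial CASP8 gave no such difference, but its mice split. S100a8 was 3.06, 3.03, 3.24, 2.87 and 3.06 in Casp8 fl/fl and 2.59, 4.12, 3.49, 4.14 and 2.70 in CASP8 IEC-KO. CASP8 IEC-KO mice 2, 3 and 4 lay above every control and mice 1 and 5 below every control. Casp8 in mice 1 to 5 was 10.89, 9.88, 10.20, 9.63 and 10.57. So the mice with the most Casp8 left, 1 and 5, had the lowest S100a8, and those with the least, 4 and 2, the highest. In FADD IEC-KO mice 1 to 5, Fadd was 7.32, 5.96, 6.31, 6.45 and 6.21. Their S100a8 values of 4.43, 4.23, 5.69, 3.06 and 4.59 did not follow such an order. The part of the Casp8 or Fadd left in the S100a8 values was not tested. The S100a8 means of 3.05 ± 0.13 in Casp8 fl/fl and 3.41 ± 0.74 in CASP8 IEC-KO (SD, n = 5) differed by 0.36 ± 0.28 (SE, 95% interval -0.20 to 0.91, adjusted p = 0.521). Without CASP8 IEC-KO replicate 1 they differed by 0.56 (adjusted p = 0.235). S100a9 had a mean of 4.57 ± 0.32 in Casp8 fl/fl and 4.70 ± 0.32 in CASP8 IEC-KO, a difference of 0.13 (95% interval -0.25 to 0.52). With limma, 0 of the 6 genes passed in this comparison, or had an unadjusted p under 0.05, and 4.17% of all genes passed. The S100a8 difference after FADD loss exceeded that after CASP8 loss by 1.09 ± 0.39 (SE), and this interaction did not pass (adjusted p = 0.547). It was 1.09 without FADD IEC-KO replicate 1 (adjusted p = 0.552) and 0.89 without CASP8 IEC-KO replicate 1 (adjusted p = 0.666). In that interaction, 0 of the 6 genes and 0% of all genes passed, and S100a8 was the 1 gene of the 6 with an unadjusted p under 0.05. So a difference between the deletions was not shown for any of them.

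**Figure D1:**
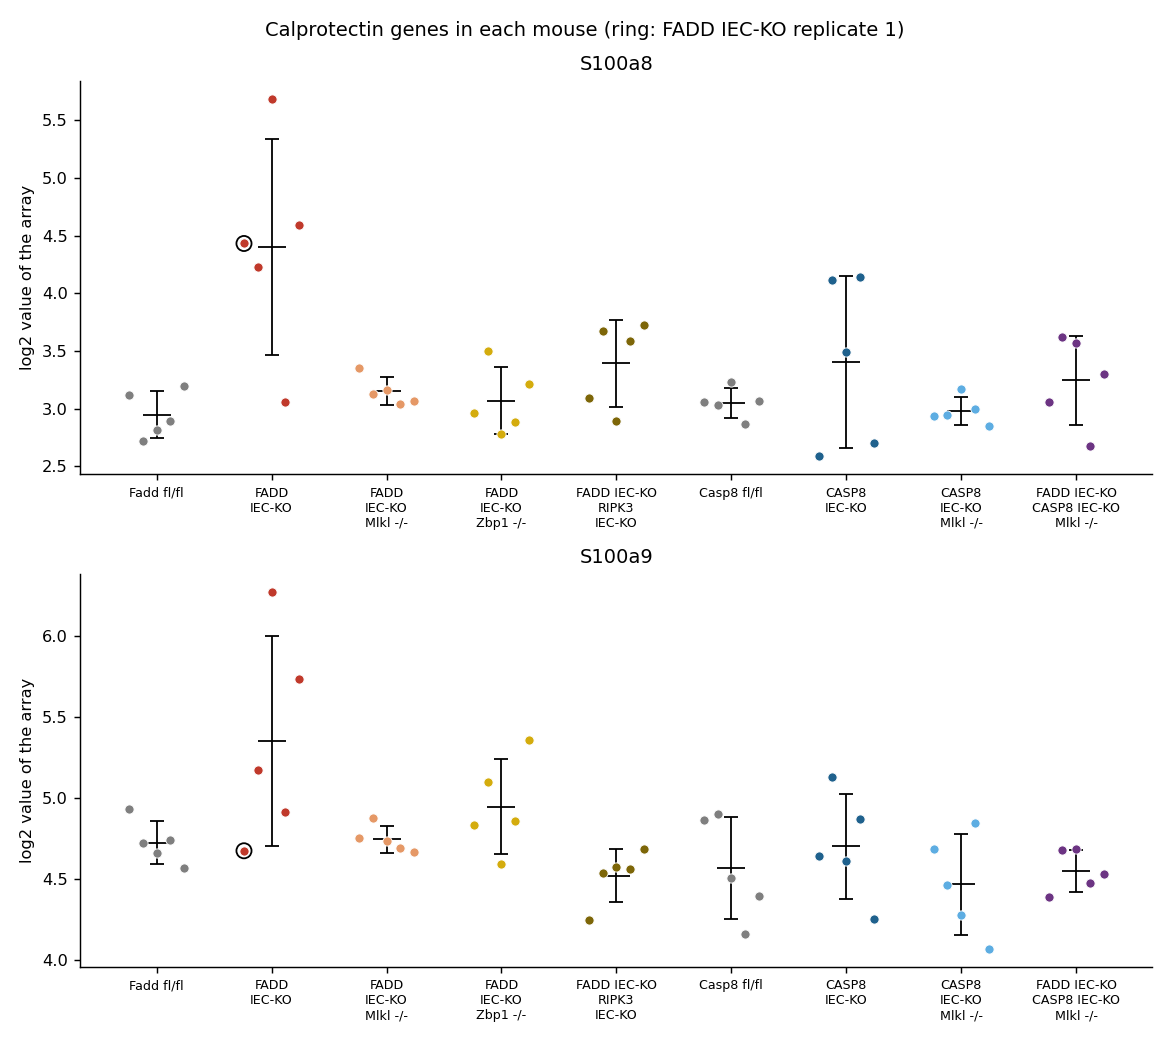
Log2 values of S100a8 and S100a9 (vertical axes) in each of the 45 mice by genotype; points are mice, bars the mean and SD of 5, and the ring marks FADD IEC-KO replicate 1. FADD IEC-KO had the highest mean of both genes, 4.40 and 5.35, and the widest spread.

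Adding a second deletion to FADD loss brought S100a8 down in all 3 groups tested, which share the same 5 FADD IEC-KO mice and so are not independent of each other or of the comparison above. The values were 3.36, 3.13, 3.16, 3.04 and 3.07 in the MLKL double mutants, with a mean of 3.15 ± 0.12 (SD, n = 5). They were 2.97, 3.50, 2.78, 2.89 and 3.22 in the ZBP1 double mutants (3.07 ± 0.29) and 3.09, 3.67, 2.89, 3.59 and 3.72 in the RIPK3 double mutants (3.39 ± 0.38). Every mouse of the 3 groups lay below FADD IEC-KO mice 1, 2, 3 and 5, and the overlap came from FADD IEC-KO mouse 4 at 3.06. Relative to FADD IEC-KO, S100a8 fell by 1.25 ± 0.28 without MLKL (SE, adjusted p = 0.00675), by 1.33 ± 0.28 without ZBP1 (adjusted p = 0.00541) and by 1.01 ± 0.28 without epithelial RIPK3 (adjusted p = 0.0482). The exact permutation p was 0.0397, 0.0238 and 0.0556 in that order.

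These S100a8 calls rest on few mice. Without FADD IEC-KO replicate 1 the differences were -1.24, -1.32 and -1.0, and the last no longer passed (adjusted p = 0.067). Without FADD IEC-KO replicate 3 they were -0.93, -1.01 and -0.69, and only that for ZBP1 passed (adjusted p = 0.0363). The RIPK3 difference was lost when any of 9 of its 10 mice was left out, and passed only without FADD IEC-KO replicate 4. It was also lost with each array centred on its median (adjusted p = 0.05) and with group weights (adjusted p = 0.06). Within the number series under 100 and from 200 the S100a8 difference was -1.27 and -1.54 without ZBP1 and -1.13 and -0.94 without RIPK3; without MLKL it was -1.20 in the first, since no MLKL double mutant had a number from 200. None passed on the spread of the compared groups alone, where the adjusted p was 0.15, 0.214 and 0.292.

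S100a9 had a lower mean in all 3 double mutants than in FADD IEC-KO, and passed in 1 of the 3 comparisons. It was 4.75, 4.88, 4.74, 4.69 and 4.67 in the MLKL double mutants and 4.83, 5.10, 4.59, 4.86 and 5.36 in the ZBP1 double mutants, with means of 4.75 ± 0.08 and 4.95 ± 0.29 (SD, n = 5). In the RIPK3 double mutants it was 4.25, 4.54, 4.58, 4.56 and 4.68 (4.52 ± 0.16). Of these 5 mice, 4 lay below every FADD IEC-KO mouse, and the highest of them, at 4.68, was level with FADD IEC-KO replicate 1. S100a9 fell by 0.83 ± 0.19 without RIPK3 (SE, adjusted p = 0.0172, exact permutation p = 0.0159). The call was lost without FADD IEC-KO replicate 3 (-0.60, adjusted p = 0.104) or replicate 5 (-0.74, adjusted p = 0.0878), and on the spread of the compared groups alone (adjusted p = 0.205). It held without FADD IEC-KO replicate 1 (-1.0, adjusted p = 0.00253). Within the number series the S100a9 difference was -0.80 and -1.11. The differences of -0.61 ± 0.19 without MLKL (adjusted p = 0.106) and -0.41 ± 0.19 without ZBP1 (adjusted p = 0.245) did not pass. That for MLKL passed without FADD IEC-KO replicate 1 (-0.78, adjusted p = 0.0144) or replicate 4 (-0.72, adjusted p = 0.0482), while that for ZBP1 was -0.57 without replicate 1 (adjusted p = 0.079).

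**Figure D2:**
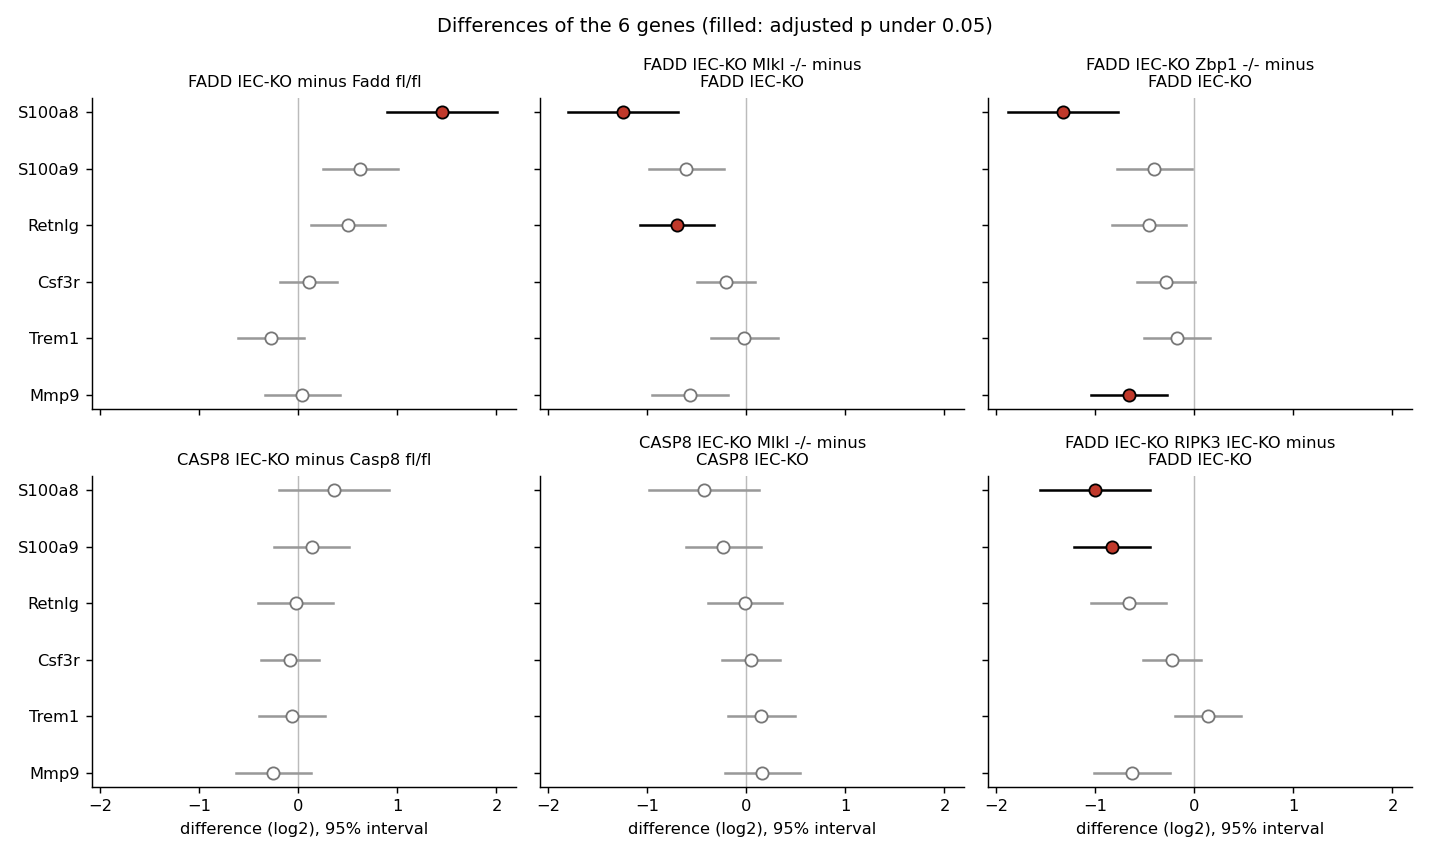
Log2 difference (horizontal axis) of each of the 6 genes with its 95% interval in 6 comparisons; filled points passed an adjusted p of 0.05. S100a8 rose by 1.45 after FADD loss and fell in the 3 double mutants without FADD, and no gene passed in the panels for CASP8.

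The calprotectin genes moved together from mouse to mouse within genotypes. After each value was set relative to its group mean, S100a8 and S100a9 correlated at r = 0.63 over 45 mice (permutation p = 0.00122, adjusted over 15 pairs 0.0183) and at rho = 0.58 (permutation p = 0.00028, adjusted 0.0042). Without the 2 mice farthest from the median of S100a8, r was 0.43 (permutation p = 0.0146) and no longer passed the adjustment (0.219), so the relation rests in part on those mice. Without the FADD IEC-KO group r was 0.52 over 40 mice. In CASP8 IEC-KO, mice 2 and 4, highest in S100a8 at 4.12 and 4.14, were also highest in S100a9 at 5.13 and 4.87, while mouse 1, lowest in S100a8 at 2.59, had the middle S100a9 value, 4.65. None of the other pairs passed. The next were S100a9 with Retnlg at r = 0.43 (permutation p = 0.0383, adjusted 0.259) and S100a9 with Csf3r at r = 0.45 (permutation p = 0.0518, adjusted 0.259), and the latter was 0.02 without the FADD IEC-KO mice.

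**Figure D3:**
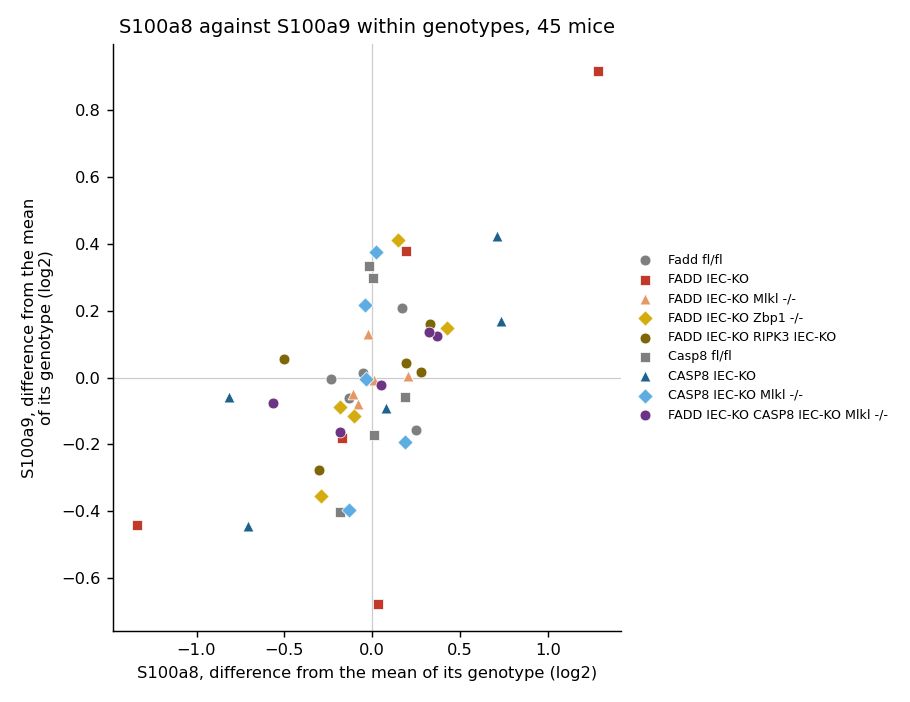
S100a8 (horizontal) against S100a9 (vertical) in 45 mice, each as the log2 difference from the mean of its genotype; colours and shapes are genotypes. Points run from lower left to upper right (r = 0.63), and FADD IEC-KO and CASP8 IEC-KO mice reach farthest along S100a8.

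Retnlg encodes resistin-like gamma, a secreted protein of mouse neutrophils and bone marrow. It was 3.93, 3.77, 4.59, 4.26 and 4.55 in Fadd fl/fl, and 4.20, 4.66, 4.76, 4.41 and 5.58 in FADD IEC-KO, whose mouse 5 was the highest of all 45. FADD IEC-KO mice 2, 3 and 5 lay above all controls. The Retnlg means of 4.22 ± 0.36 and 4.72 ± 0.53 (SD, n = 5) differed by 0.50 ± 0.19 (SE), which did not pass (adjusted p = 0.117), nor did the value of 0.63 without FADD IEC-KO replicate 1 (adjusted p = 0.0541). In the MLKL double mutants it was 4.39, 3.90, 3.70, 4.06 and 4.05, so 4 of 5 mice lay below every FADD IEC-KO mouse. Retnlg fell there by 0.70 ± 0.19 (SE, adjusted p = 0.0376, exact permutation p = 0.0159). With S100a8, that made 2 of the 6 genes against 1.61% of all genes in this comparison. The Retnlg call was lost in 7 of 10 runs that left out a mouse: FADD IEC-KO replicates 2, 3 and 5 and MLKL double mutant replicates 2 to 5. The value was -0.83 without FADD IEC-KO replicate 1 (adjusted p = 0.00978) and -0.49 without replicate 5 (adjusted p = 0.227), and the call was lost on the spread of the compared groups alone (adjusted p = 0.218). With the number series of the sample titles as a covariate it was -0.67 (adjusted p = 0.0519), and no MLKL double mutant had a number from 200.

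In the RIPK3 double mutants, Retnlg was 4.03, 4.43, 4.06, 3.93 and 3.83, and in the ZBP1 double mutants 3.94, 4.23, 4.15, 4.38 and 4.59. Of the RIPK3 mice, 4 lay below every FADD IEC-KO mouse, and the ZBP1 mice overlapped them more. The Retnlg differences of -0.66 ± 0.19 (SE, adjusted p = 0.0542) and -0.46 ± 0.19 (adjusted p = 0.167) did not pass; without FADD IEC-KO replicate 1 the first passed (-0.79, adjusted p = 0.021) and the second did not (-0.59, adjusted p = 0.0778). After CASP8 loss Retnlg differed by -0.03 (95% interval -0.40 to 0.35).

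Csf3r encodes the receptor of G-CSF, the growth factor that drives neutrophil production. It was 5.72, 6.23, 6.13, 6.32 and 5.95 in Fadd fl/fl and 5.70, 5.88, 6.71, 5.92 and 6.65 in FADD IEC-KO. FADD IEC-KO mice 3 and 5 lay above every mouse of the other groups, while mice 1, 2 and 4 lay below the highest control. The Csf3r means of 6.07 ± 0.24 and 6.17 ± 0.47 (SD, n = 5) differed by 0.10 ± 0.14 (SE, 95% interval -0.19 to 0.39), and by 0.22 without FADD IEC-KO replicate 1. In the other 5 comparisons that add a deletion or remove CASP8, its differences lay between -0.29 and 0.05, and none passed. Without replicate 1 the Csf3r differences of the MLKL, ZBP1 and RIPK3 double mutants from FADD IEC-KO were -0.32, -0.41 and -0.34, and none passed.

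Trem1 encodes an activating receptor of neutrophils and monocytes that amplifies inflammatory signals, and it was the only one of the 6 whose mean was not highest in FADD IEC-KO. It was 4.98, 4.55, 4.66, 5.12 and 4.23 in Fadd fl/fl and 4.79, 4.25, 4.23, 4.61 and 4.24 in FADD IEC-KO. All FADD IEC-KO mice lay within the range of the controls. The Trem1 means of 4.71 ± 0.35 and 4.43 ± 0.26 (SD, n = 5) differed by -0.28 ± 0.17 (SE, adjusted p = 0.381), and by -0.37 without FADD IEC-KO replicate 1 (adjusted p = 0.245). The lowest Trem1 mean, 4.10 ± 0.18 (SD, n = 5), was that of the triple mutants, with values of 4.01, 4.17, 4.11, 4.34 and 3.85. They lay below the mean of both floxed groups by 0.46, a difference of -0.46 ± 0.14 that did not pass (SE, adjusted p = 0.064, exact permutation p = 0.0183 over 5 against 10 mice). All 5 triple mutants had title numbers of 200 and over, as had 3 Fadd fl/fl mice and 1 Casp8 fl/fl mouse. Genotype and number series are thus partly confounded in this comparison.

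Mmp9 encodes gelatinase B, a matrix protease stored in neutrophil granules. It gave no called difference after FADD loss, with values of 5.53, 5.64, 5.61, 6.07 and 5.65 in Fadd fl/fl and 5.42, 6.0, 6.64, 5.26 and 5.39 in FADD IEC-KO. Of the FADD IEC-KO mice, 3 lay below every control and 1 above. The Mmp9 means of 5.70 ± 0.21 and 5.74 ± 0.58 (SD, n = 5) differed by 0.04 ± 0.19 (SE, adjusted p = 0.944), and leaving out FADD IEC-KO replicate 1 gave 0.12 and leaving out replicate 3 gave -0.18.

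All 3 double mutants had lower Mmp9 means than Fadd fl/fl, and 1 of them passed the test. It was 5.59, 5.20, 4.68, 4.84 and 5.07 in the ZBP1 double mutants, 5.17, 5.11, 4.87, 5.32 and 5.38 in the MLKL double mutants, and 5.22, 4.83, 4.68, 5.39 and 5.41 in the RIPK3 double mutants. All mice of the last 2 groups, and 4 of 5 of the first, lay below every Fadd fl/fl mouse. Against Fadd fl/fl the Mmp9 difference was -0.62 ± 0.19 without ZBP1 (SE, adjusted p = 0.0245, exact permutation p = 0.0159), -0.53 ± 0.19 without MLKL (adjusted p = 0.0649) and -0.59 ± 0.19 without RIPK3 (adjusted p = 0.108). The 3 comparisons share their control mice. For the MLKL and RIPK3 double mutants, which did not overlap Fadd fl/fl, the exact permutation p was 0.00794, the smallest that 5 against 5 mice can give. Such separation was also found for 9.86% of all genes without MLKL and for 3.27% without RIPK3.

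Mmp9 was the 1 gene of the 6 that passed in the ZBP1 double mutants against Fadd fl/fl, where 11.9% of all genes passed, a share near that of the 6. The call was lost without Fadd fl/fl replicate 4 (-0.53, adjusted p = 0.0797), the highest control, and without ZBP1 double mutant replicate 3, 4 or 5 (adjusted p = 0.0759, 0.0614 and 0.0503), and with group weights (adjusted p = 0.0528). Against FADD IEC-KO, Mmp9 fell by 0.66 ± 0.19 without ZBP1 (SE, adjusted p = 0.0403, exact permutation p = 0.0556), and with S100a8 that made 2 of the 6 genes against 3.32% of all genes. That Mmp9 call was lost without FADD IEC-KO replicate 2 or 3 (-0.60 and -0.44, adjusted p = 0.107 and 0.199) and without ZBP1 double mutant replicate 3, 4 or 5. It was also lost with group weights (adjusted p = 0.102) and on the spread of the compared groups alone (adjusted p = 0.31). It held without FADD IEC-KO replicate 1 (-0.74, adjusted p = 0.0302). Within the number series the Mmp9 difference was -0.67 and -0.43 against FADD IEC-KO, and -0.43 and -0.82 against Fadd fl/fl. The Mmp9 differences of -0.57 ± 0.19 without MLKL (adjusted p = 0.147) and -0.63 ± 0.19 without RIPK3 (adjusted p = 0.0753) did not pass, nor did those without FADD IEC-KO replicate 1 (-0.65 and -0.71, adjusted p = 0.0905 and 0.0507). In the RIPK3 comparison, S100a8 and S100a9 were the 2 of the 6 genes that passed, against 1.55% of all genes. The median difference of the 6 genes was 0.30 after FADD loss, -0.59 with MLKL loss added, -0.43 with ZBP1 loss and -0.65 with RIPK3 loss, where the median of all genes lay near 0.

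**Figure D4:**
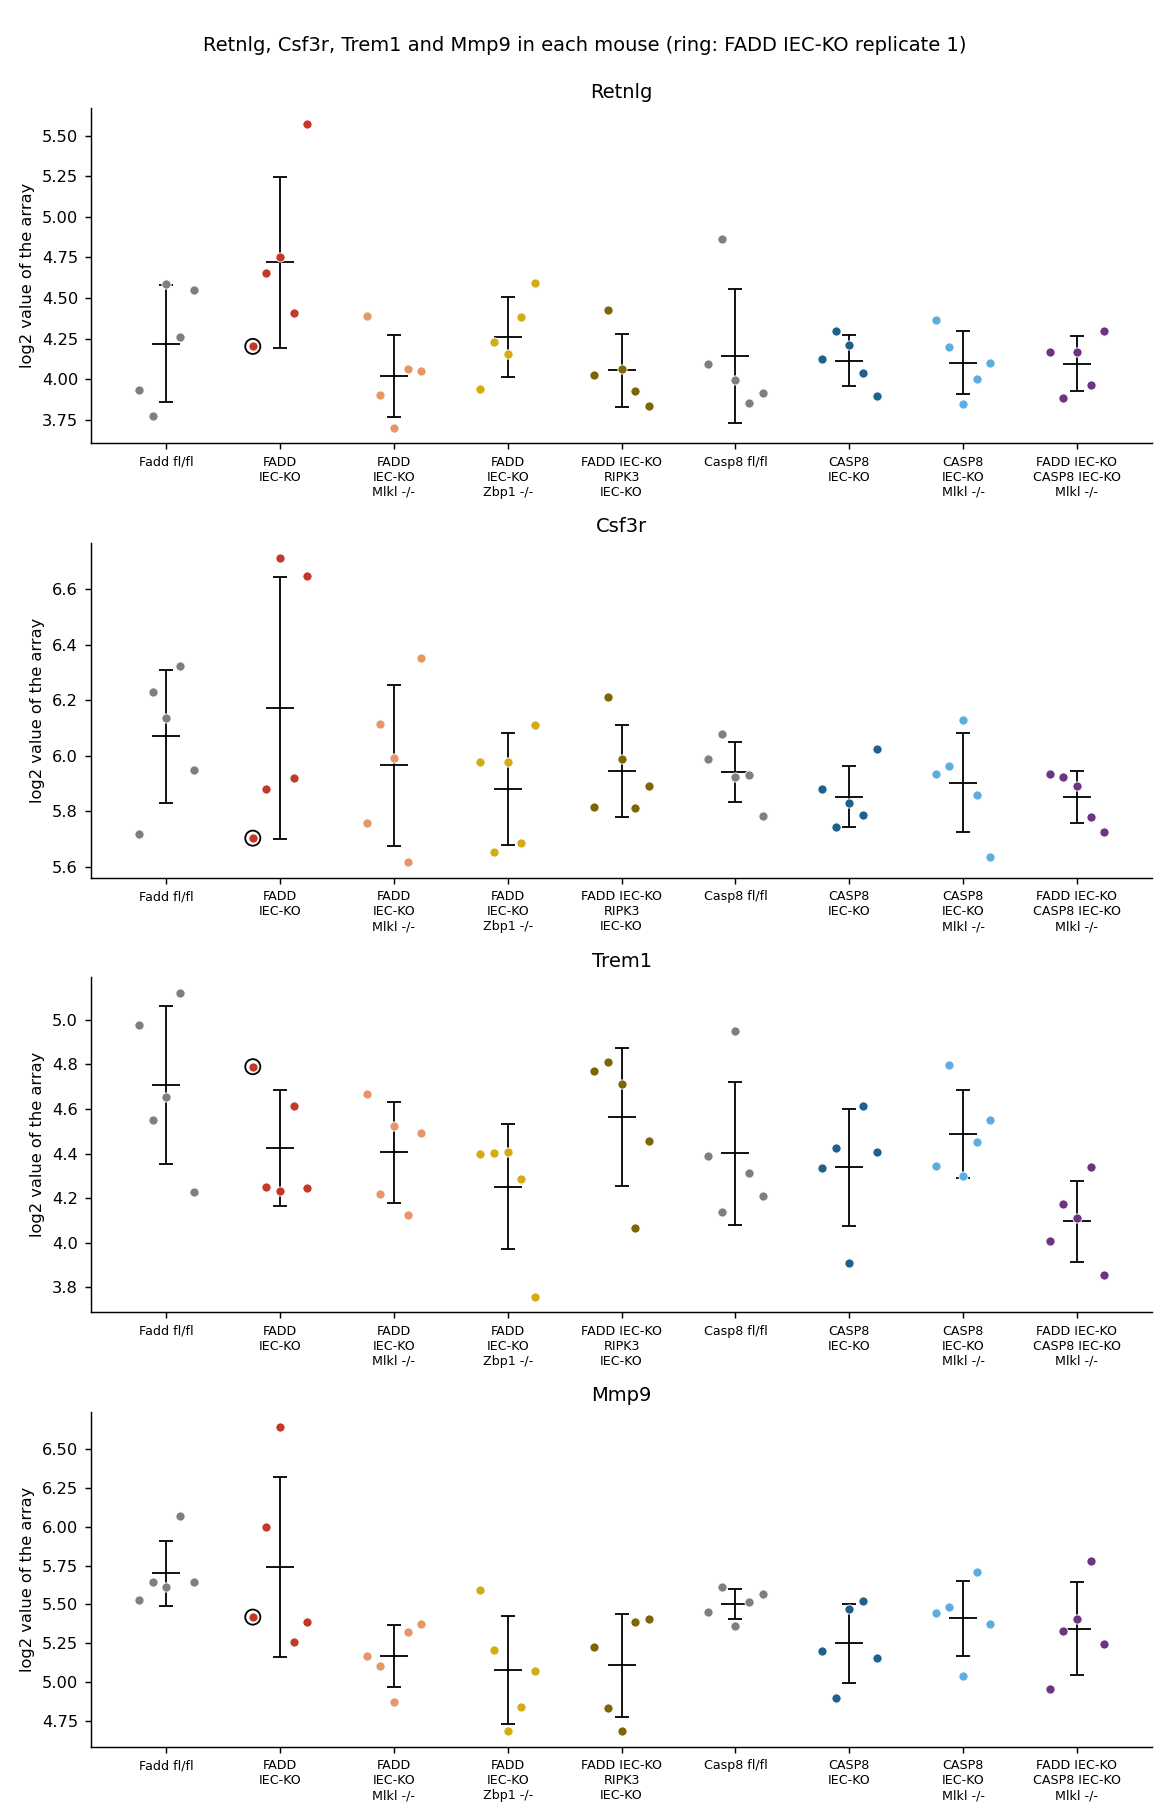
Log2 values of Retnlg, Csf3r, Trem1 and Mmp9 (vertical axes) in each of the 45 mice by genotype; points are mice, bars the mean and SD of 5, and the ring marks FADD IEC-KO replicate 1. FADD IEC-KO mice 3 and 5 had the highest Csf3r values, 6.71 and 6.65, and the Mmp9 values of the MLKL and RIPK3 double mutants lie under those of Fadd fl/fl.

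The remaining comparisons, tested with limma, gave no called gene among the 6. With MLKL loss added to CASP8 loss, S100a8 differed by -0.43 ± 0.28 (SE, 95% interval -0.98 to 0.13), which did not pass. Its values in CASP8 IEC-KO Mlkl -/- were 2.94, 2.94, 3.17, 3.0 and 2.85, all within the span of the CASP8 IEC-KO mice. In that comparison 0 of the 6 passed, against 2.78% of all genes, and 0 passed in CASP8 IEC-KO Mlkl -/- against Casp8 fl/fl, against 1.09%; in both, 0 had an unadjusted p under 0.05. Against Fadd fl/fl, 0 of the 6 passed in the MLKL double mutants, where 10.5% of all genes did, and 0 in the RIPK3 double mutants, where 1.23% did; Mmp9 was the 1 gene with an unadjusted p under 0.05 in each. The triple mutants gave 0 of the 6 against the floxed controls (3.69% of all genes), the MLKL double mutants (7.86%) and CASP8 IEC-KO Mlkl -/- (3.1%), with 1, 0 and 1 at an unadjusted p under 0.05. All triple mutants had title numbers of 200 and over, and all MLKL double mutants numbers under 100. Between these groups, genotype and number series cannot be told apart. Among the double mutants 0 of the 6 passed between ZBP1 and MLKL loss (4.12% of all genes), RIPK3 and MLKL loss (4.96%) or RIPK3 and ZBP1 loss (2.02%), with 0, 0 and 1 at an unadjusted p under 0.05. Casp8 fl/fl against Fadd fl/fl gave 0 at either threshold, and 0.00513% of all genes passed.

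Whether MLKL loss acted differently under FADD loss and under CASP8 loss was tested as an interaction, which shares its mice with the comparisons above. It was -0.73 ± 0.27 for Mmp9 (SE, adjusted p = 0.533), -0.69 ± 0.26 for Retnlg (adjusted p = 0.586) and -0.82 ± 0.39 for S100a8 (adjusted p = 0.753). Without FADD IEC-KO replicate 1 it was -0.81 for Mmp9, -0.82 for Retnlg and -0.81 for S100a8 (adjusted p = 0.486, 0.402 and 0.813). With limma 0 of the 6 genes passed, 3 had an unadjusted p under 0.05, and 0.0564% of all genes passed.

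The order of the 9 groups by mean was loose, and its top stood apart by more than the pooled SD for S100a8 and Retnlg only. FADD IEC-KO had the highest mean of 5 of the 6 genes, and Fadd fl/fl that of Trem1. For Csf3r and Mmp9 the FADD IEC-KO mean lay above that of Fadd fl/fl by only 0.10 and 0.04. By median, Fadd fl/fl lay above FADD IEC-KO for both, at 6.13 against 5.92 for Csf3r and 5.64 against 5.42 for Mmp9. FADD IEC-KO kept the highest median of S100a8, S100a9 and Retnlg. Of 48 neighbouring pairs in the 6 orders, 3 lay further apart than their pooled SD, and in 0 pairs were the mice of the groups separate. The 3 gaps were FADD IEC-KO above CASP8 IEC-KO for S100a8 (0.99), FADD IEC-KO above the ZBP1 double mutants for Retnlg (0.46) and Fadd fl/fl above Casp8 fl/fl for Mmp9 (0.20). The spread of FADD IEC-KO was the largest of the 9 groups for all genes but Trem1. Its SD was 0.94 for S100a8, where the next, CASP8 IEC-KO, had 0.74 and the other 7 groups 0.39 or less. Across all genes FADD IEC-KO was the most variable group for 13.1%. FADD IEC-KO mouse 3 held the highest value of all 45 mice for 4 of the 6 genes: S100a8, S100a9, Csf3r and Mmp9.

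None of the other listed neutrophil genes was called higher after FADD loss. Of 14 measured granule genes, 0 passed upward and 1, Lyz2, downward (-2.16 ± 0.31, SE), a lysozyme of macrophages and neutrophils with a near copy, Lyz1, in Paneth cells; whether the probe also reads Lyz1 was not tested. Of the 14 granule genes 10 had a positive difference, and their median was 0.11, against a median near 0 for all genes. Of 18 measured surface and signalling genes, 0 passed upward and 1, Selplg, the ligand of P-selectin, downward (-0.51 ± 0.15, SE); 9 were positive and their median was 0.03. Without FADD IEC-KO replicate 1 the calls were the same in number, with medians of 0.08 and 0.06. Also without this mouse, 1 granule gene, Pglyrp1, passed upward when MLKL loss was added to FADD loss (0.78). Of the surface genes, Hdc passed downward with ZBP1 loss added (-0.40) and Il1r2 with RIPK3 loss added (-0.50). With all mice Hdc did not pass (limma adjusted p = 0.0662). In the same order, 1.61%, 3.32% and 1.55% of all genes passed with all mice. The dimmest of the listed neutrophil probes over all arrays were Chil3 at 2.66 and Stfa2l1 at 2.67, and Ngp, a granule protein of young neutrophils, was at 3.85. The mean log2 value of the granule genes in a mouse includes the fall of Lyz2. It ran from 5.58 to 5.92 in Fadd fl/fl and from 5.58 to 6.01 in FADD IEC-KO, with the highest in mouse 3. The mean of the surface genes ran from 5.33 to 5.60 and from 5.09 to 5.63, with mice 3 and 5 highest at 5.58 and 5.63. Whether the number of neutrophils moved with these values was not tested.

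Among 18 factors that recruit or expand neutrophils, 1 rose after FADD loss: Tnf, an inflammatory cytokine, by 1.44 ± 0.25 (SE, adjusted p = 0.000412). Of the 18, 16 had a positive difference, with a median of 0.12, in the comparison in which 3.73% of all genes passed in either direction. Tnf fell by 1.25 ± 0.25 when RIPK3 was lost as well, and Selp, the adhesion molecule P-selectin, fell by 1.08 ± 0.27 when ZBP1 was. In the ZBP1 double mutants against Fadd fl/fl 4 of the 18 were higher, where 11.9% of all genes passed in either direction. The 4 were Tnf (1.04), the neutrophil chemokines Cxcl1 (0.41) and Cxcl3 (0.35) and the adhesion molecule Sele (0.39), although S100a8 did not pass (0.12 ± 0.28). Of 15 S100 genes other than the pair, 4 rose after FADD loss: S100a6 by 1.16 ± 0.19, S100a14 by 0.90 ± 0.21, S100a16 by 0.55 ± 0.11 and S100a11 by 0.45 ± 0.12, all with mice that did not overlap the controls. Of all genes 3.73% passed there, and 3.83% had mice that did not overlap, both counted in either direction. Of the 15, 12 were positive, with a median of 0.06. After CASP8 loss 4 of the 15 rose too, where 4.17% of all genes passed in either direction. S100a6 was among the 4, with a rise of 1.33 ± 0.19, in a comparison in which S100a8 did not pass. Without FADD IEC-KO replicate 1, S100a6 differed by -1.09 with MLKL loss added to FADD loss and by -0.88 with RIPK3 loss added. Both also passed with all mice (limma adjusted p = 0.00247 and 0.0363), where 1.61% and 1.55% of all genes passed. With ZBP1 loss added, 0 of the 15 passed without that replicate.

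Some genes of the members' partners were called, in different comparisons. Of 14 measured, Timp2 and Timp3, inhibitors of matrix proteases, fell after FADD loss by 0.67 ± 0.15 and 0.57 ± 0.13 (SE). Tlr4, which senses endotoxin and can bind calprotectin, rose by 0.98 ± 0.27 after CASP8 loss and fell by 1.22 ± 0.27 when RIPK3 loss was added to FADD loss. Pglyrp1, a peptidoglycan recognition protein proposed as a ligand of TREM-1, rose by 0.77 ± 0.13 when MLKL loss was added to FADD loss. None of the 6 genes passed after CASP8 loss, and S100a8 and Retnlg fell with MLKL loss added. In either direction, 3.73% of all genes passed after FADD loss and 4.17% after CASP8 loss. With RIPK3 or MLKL loss added to FADD loss, 1.55% and 1.61% passed. Of 12 other matrix metalloproteinases, Mmp2 alone passed after FADD loss (-0.79 ± 0.17).

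Monocytes and macrophages also make calprotectin and Mmp9. Of 11 measured markers of these cells, 0 rose and 3 fell after FADD loss, C1qb by 0.71 ± 0.21, Csf1r by 0.61 ± 0.17 and Cd163 by 0.53 ± 0.16 (SE). Their median difference was -0.53, with 1 of 11 positive. With MLKL loss added to FADD loss 0 of the 11 passed, 11 were positive and the median was 0.24. In the ZBP1 double mutants against Fadd fl/fl, the comparison in which Mmp9 fell, 6 of the 11 fell, 0 were positive and the median was -0.64. Of all genes 11.9% passed there in either direction. The part of these cells in the values of the 6 genes was not tested.

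Without FADD IEC-KO replicate 1 the differences of Lyz2, Selplg, Tnf, Timp2, Timp3 and Mmp2 after FADD loss were -2.24, -0.55, 1.41, -0.59, -0.54 and -0.82, and those of S100a6, S100a14, S100a16 and S100a11 were 1.30, 0.94, 0.54 and 0.53, all still called. C1qb (-0.76) and Csf1r (-0.70) kept their calls and Cd163 did not (-0.47, adjusted p = 0.114), while 5 of the 11 macrophage markers passed. The calls of Pglyrp1 (0.78) with MLKL loss, Selp (-1.22) with ZBP1 loss, and Tnf (-1.23) and Tlr4 (-1.25) with RIPK3 loss also held.

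The genes with values most like each member over the 45 arrays were listed by Pearson's r, as a description with no test. For S100a8 these were Nob1 (0.69), Pcgf6 (0.69), Ppp2r2a (0.64), Taf4b (0.62) and Nsun2 (0.62), and for S100a9 Tlcd3a (0.66), Khdc1a (0.64), Hp (0.64), Nubp1 (0.63) and Khdc1c (0.63). Relative to group means, the highest were Fst (0.64), Spry4 (0.59), Nob1, Pcgf6 and Ier3 (0.56 each) for S100a8 and Erfe (0.62), Ftsj3 (0.59), Olfr1337, Cwh43 and Lsm7 (0.55 to 0.56) for S100a9. Haptoglobin, the product of Hp, is an acute-phase protein also stored in neutrophil granules. Retnlg was nearest to Hcar2 (0.55), Slc23a3 (0.54), Anxa1 (0.53), Myot (0.52) and Hdc (0.51). Csf3r was nearest to Alad (0.58), Il10ra (0.54), Slc15a3 (0.52), Ccl19 (0.50) and Hdc (0.49). Hdc, histidine decarboxylase of mast cells, basophils and neutrophils, stood in both lists. Trem1 was nearest to Zscan25 (0.62), Krtap9-1 (0.58), Vmn2r40 (0.57), Cdcp2 (0.57) and Zfp2 (0.56), and Mmp9 to Pla2g2a (0.57), Fchsd1 (0.56), Thsd1 (0.56), Rprd2 (0.56) and Col5a1 (0.55). All points share the platform and the normalization, and the genotypes enter the uncentred values.

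**Figure D5:**
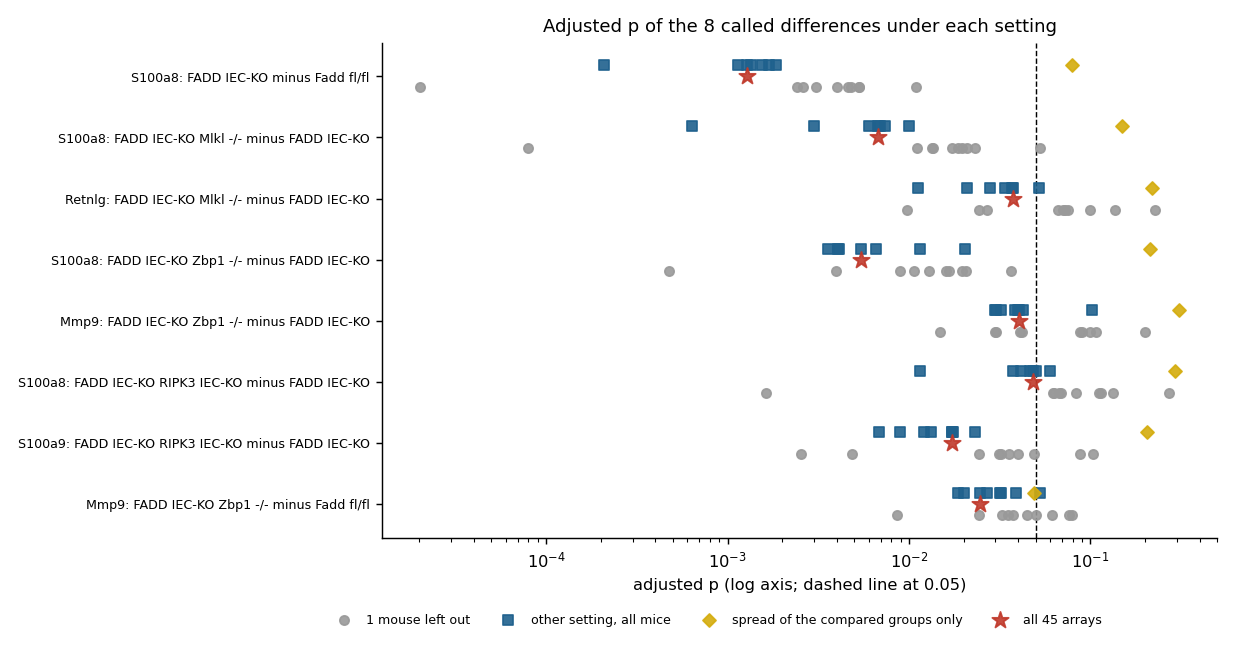
Adjusted p (horizontal, log axis) of the 8 called differences with all 45 arrays, with 1 mouse left out, under the other settings, and with the spread of the compared groups only; the dashed line is 0.05. With the spread of the compared groups only, 7 of the 8 lie to the right of the line.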

How the data were processed

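The deposited values are log2 intensities, 1 array per mouse. The submitters' processing notes name Affymetrix Expression Console and, beside it, the Transcriptome Analysis Console, without versions; how the authors summarised probes, and the genome build, are not given in the sources used here. Array medians lay between 6.36 and 6.44. Of 22142 probes, 19527 were paired with 1 symbol, and the probe with the highest mean stood for a gene. Group means of all 45 arrays were estimated in one linear model (36 residual degrees of freedom) with limma 3.58.1 in R 4.3.3 for 19 comparisons, with Benjamini-Hochberg adjustment across 19494 genes. Errors of differences are SEs from that fit. The number of arrays limits the precision, and p-values rest on a spread pooled over 9 groups, while FADD IEC-KO varied most for 5 of the 6 genes. The limma and correlation steps were tested on simulated data with the same spread in every group, so unequal spread was not tried. Exact permutation tests over mice were two-sided, and correlations used 100000 permutations within genotypes. Promoters came from RefSeq tables of GRCm38.p6, which held 5 of the 6 members; Mmp9 is named only. The members, lists and named genes (members, listed genes called with the largest differences or else the brightest, and the 5 genes with the highest r) were chosen with earlier results of these data known. Replicates are numbered in the order of deposit. Titles carry numbers under 100 or of 200 and over, tested as a covariate.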

Additional observations from a re-analysis of the deposited data

Results flagged for a closer look

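Within groups of 5 mice, 54 combinations of gene and genotype were examined for a mouse far from the others by Dixon's test, and 3 had one; chance gives about 1 in 20, or 2.7. Retnlg in Casp8 fl/fl replicate 2 was 4.87, with the other 4 mice between 3.85 and 4.09. Trem1 in FADD IEC-KO Zbp1 -/- replicate 5 was 3.76, with the others between 4.29 and 4.41. Mmp9 in Fadd fl/fl replicate 4 was 6.07, with the others between 5.53 and 5.65; without this mouse Mmp9 no longer passed in FADD IEC-KO Zbp1 -/- against Fadd fl/fl (adjusted p = 0.0797).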

How the results depend on the processing

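Of 114 combinations of gene and comparison 8 were called; 0 of these changed sign under any alternative, and 7 lost the call when the spread came from the compared groups alone. Whether values lie above background is unknown, and a planned filter at the median of all values kept 0 of the 6 genes, so it gave no value; a filter at the lower quartile, chosen after seeing the data, kept 3 (S100a9, Csf3r, Mmp9). No paired analysis was possible because replicate numbers follow the order of deposit and the titles share none.

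The share of all genes called under each alternative setting is not given here. The counts below therefore do not show whether the 6 genes changed more than other genes did. The number of the 6 genes called after FADD loss was 1, became 2 with quantile normalization, median centring, array weights and a trended robust prior, 0 with the compared groups alone, and 1 to 2 with a mouse left out. Without FADD IEC-KO replicates 1 or 4 it was 2. For MLKL loss added to FADD loss (2) it was 1 with the title series, 4 with array weights, 0 with the compared groups alone and 0 to 3 in leave-outs. For ZBP1 loss (2) it was 1 with group weights, 0 with the compared groups alone and 1 to 2 in leave-outs. For RIPK3 loss (2) it was 4 with array weights, 1 with group weights, 0 with the compared groups alone and 0 to 4 in leave-outs. Against Fadd fl/fl, FADD IEC-KO Mlkl -/- (0) had 1 with array weights, group weights or the compared groups alone, and FADD IEC-KO Zbp1 -/- (1) had 2 with the title series or quantile normalization, 0 with group weights and 0 to 2 in leave-outs. The triple mutants (0) had 1 with array or group weights and 0 to 1 in leave-outs. Related pairs of genes numbered 1, became 7 without centring on genotypes and 0 without the 2 mice farthest from the median.

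Some differences that were not called changed sign: over all 114 combinations, 6 values did under settings that keep all mice and 55 with a mouse left out. Retnlg after CASP8 loss was 0.034 with quantile normalization and ran from -0.10 to 0.15 in leave-outs; for MLKL loss added to CASP8 loss it was 0.021 with the title series, 0.034 with array weights and ran from -0.077 to 0.052. Among the 6 comparisons of a deletion with its control or its single mutant, other leave-out ranges that crossed 0 were -0.033 to 0.22 for Csf3r and -0.18 to 0.16 for Mmp9 after FADD loss, -0.13 to 0.074 for Trem1 after CASP8 loss, -0.086 to 0.071 for Trem1 with MLKL loss added to FADD loss, and -0.0059 to 0.12 for Csf3r with MLKL loss added to CASP8 loss. With medians in place of means, 5 of the 9 groups kept their position for S100a8, 7 for S100a9, 4 for Retnlg, 1 for Csf3r, 1 for Trem1 and 2 for Mmp9. The causes were not tested.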
